A study of Mus musculus with 12 samples.

Results

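A set of 10 genes that natural killer (NK) cells and cytotoxic T cells use to recognise and kill other cells were followed in the 12 RNA-seq libraries of a study of mouse regulatory T cells (Tregs), sorted as CD4 cells. They are 10 of the 21839 genes in the count table: the receptor genes Ncr1, Klrb1c, Klrd1 and Klrk1, the effector genes Fasl, Prf1, Gzmb, Nkg7 and Ccl5, and the co-receptor gene Cd8a. They were picked by name, because several had fewer counts in cells sorted for high CD25 than in cells sorted for low CD25. The difference between the CD25 gates is therefore given for these genes as a description, without a test. The tests concern genotype and replicate number, which are other contrasts than the one named for the choice, although the choice was made with earlier results of these data known.

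All mice were C57BL/6 and carried Atg5 flox/flox, that is, loxP sites around the autophagy gene Atg5 on both chromosomes. TG mice were in addition CD11c Cre +/-, and their WT littermates were CD11c Cre -/-. The CD11c promoter drives Cre in dendritic cells and in other cells that express CD11c, and T cells are not its intended target. CD11c itself, encoded by Itgax, was read at up to 1.79 CPM in TG Low and 1.18 CPM in WT Low. Atg5 was read in all 12 sorted libraries at 32.0 to 41.5 CPM (the usual depth-scaled count unit, here from TMM-scaled library sizes). A count over the whole gene does not show whether the floxed part was present. The study asked what Tregs look like when dendritic cells lack autophagy. CD4 cells from spleen and from inguinal, cervical and brachial lymph nodes were sorted on a further surface marker and on CD25, the interleukin-2 receptor chain encoded by Il2ra, which gave 4 groups of 3 libraries, namely TG High, TG Low, WT High and WT Low. The labels do not give the age of the mice, and whether each replicate is another animal is not stated either. The p-values therefore cover the spread between libraries, which may be technical.

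NK cells and CD8 T cells kill by 2 routes. In the first, perforin opens the membrane of the target cell to granzymes released from granules. In the second, Fas ligand on the killer engages Fas on the target. Activating receptors such as NKp46 and NKG2D start the attack, and lectin-like receptors that read class I molecules hold it back. Tregs are known mainly for restraining other T cells, and some of them use granzyme B and perforin to do so.

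The libraries carried the RNA of CD4 Tregs. The 8 CD4 T cell and Treg markers were all detected in every library, with Cd4 between 513 and 715 CPM and Cd3e between 921 and 1145 CPM. Foxp3 was higher in the High gate, at 1412 to 1639 CPM in TG High and 1454 to 1662 in WT High. It stood at 1098 to 1193 CPM in TG Low and 983 to 1185 in WT Low. Whether the gates held the same share of Tregs was not tested. Il2ra followed the gates, with 1141 to 1261 CPM in TG High, 510 to 715 in TG Low, 1072 to 1309 in WT High and 481 to 734 in WT Low. Total counts ran from 18161830 to 23942479, apart from TG High replicate 2 with 6767828. Transcripts of other cells were present too, and those of B cells followed the replicate number. The summed gamma delta T cell markers did not, at 13.4 to 21.4 CPM in number 1 and 12.5 to 32.1 CPM in number 2. The summed level of 7 B cell markers was 698 to 1085 CPM in the 4 libraries numbered 1 and 357 to 591 CPM in the other 8, with no marker at 0. The labels do not say what the replicate numbers mark, but libraries with the same number varied together in all 4 groups, so each comparison is also given for same-numbered pairs or with the number as a block in the fit.

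Levels per kilobase of exon differed widely among the 10 genes. The exon length enters this ranking, and in plain CPM the median of Cd8a (3.42) was above that of Ccl5 (1.30). As a median over the 12 libraries, Nkg7 stood highest at 10.8 CPM per kb, followed by Prf1 at 7.84, Fasl at 4.77, Gzmb at 4.26 and Ccl5 at 1.35 CPM per kb. The medians of Cd8a (0.940), Klrd1 (0.202), Ncr1 (0.159), Klrb1c (0.0617) and Klrk1 (0.0206 CPM per kb) were all below 1. Neighbours in this ranking overlap between libraries, and the order depends on the summary used. As a mean, which the libraries numbered 1 raise, Gzmb (6.55) stood above Fasl (4.70), and Ncr1 (0.954) above Cd8a (0.889 CPM per kb). Fasl and Prf1 varied least, by 3.95-fold and 3.27-fold between the highest and lowest library, against 9.14-fold for Nkg7, 30.4-fold for Gzmb and 55.7-fold for Ccl5. Ncr1 had no count in 5 libraries, Klrk1 in 3, and Klrd1 and Klrb1c in 2 each. A count of 0 allows a level of up to 0.126 to 0.459 CPM, depending on the library (3 counts, counting error only).

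Of the 10 genes, 8 have a promoter entry in the RefSeq table for GRCm38.p6, all but Klrd1 and Ccl5. Each entry holds 300 bases, from 250 before to 50 after the start of the gene as RefSeq places it. That start can differ from the gene bounds given here from GENCODE, so that the window of Klrb1c lies inside the GENCODE gene and that of Gzmb wholly before it. The windows of Ncr1, Klrk1 and Klrb1c are shown beside those of Gzmb, Prf1 and Fasl, and a link between their letters and the levels was not tested. Capitals mark TGTGGT or its reverse complement ACCACA, the core letters bound by RUNX factors, and Runx3 is known to act in NK and CD8 T cells. Ncr1 (chr7:4337465-4337764, plus strand) holds 2 matches, Klrk1 (chr6:129623815-129624114, minus strand) holds 1, and Klrb1c (chr6:128788592-128788891, minus strand) holds 1.
Ncr1: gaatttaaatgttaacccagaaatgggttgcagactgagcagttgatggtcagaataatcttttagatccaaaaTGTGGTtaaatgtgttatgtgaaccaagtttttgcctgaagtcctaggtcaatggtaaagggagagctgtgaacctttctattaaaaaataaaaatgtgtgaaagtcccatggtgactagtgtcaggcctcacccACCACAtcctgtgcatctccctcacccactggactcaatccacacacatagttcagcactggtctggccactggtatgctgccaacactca
Klrk1: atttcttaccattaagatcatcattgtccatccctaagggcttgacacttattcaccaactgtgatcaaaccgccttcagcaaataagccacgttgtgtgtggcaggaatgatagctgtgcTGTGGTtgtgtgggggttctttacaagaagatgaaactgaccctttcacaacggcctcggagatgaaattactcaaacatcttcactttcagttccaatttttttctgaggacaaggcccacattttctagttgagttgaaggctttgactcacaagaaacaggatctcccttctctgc
Klrb1c: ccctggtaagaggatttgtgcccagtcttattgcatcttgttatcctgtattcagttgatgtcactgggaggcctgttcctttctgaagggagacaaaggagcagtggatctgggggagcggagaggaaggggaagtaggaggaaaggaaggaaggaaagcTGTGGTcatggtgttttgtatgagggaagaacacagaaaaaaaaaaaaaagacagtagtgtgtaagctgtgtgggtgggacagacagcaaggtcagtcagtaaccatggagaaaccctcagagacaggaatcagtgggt

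Among the effector genes, Gzmb (chr14:56262285-56262584, minus strand) holds 2 matches, Prf1 (chr10:61297586-61297885, plus strand) holds 1 and Fasl (chr1:161788446-161788745, minus strand) holds 0.
Gzmb: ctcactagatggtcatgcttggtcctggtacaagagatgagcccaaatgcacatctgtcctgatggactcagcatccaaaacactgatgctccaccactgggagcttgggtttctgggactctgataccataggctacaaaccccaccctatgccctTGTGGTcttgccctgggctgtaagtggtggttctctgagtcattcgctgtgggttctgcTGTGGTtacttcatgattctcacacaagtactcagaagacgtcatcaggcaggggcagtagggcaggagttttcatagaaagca
Prf1: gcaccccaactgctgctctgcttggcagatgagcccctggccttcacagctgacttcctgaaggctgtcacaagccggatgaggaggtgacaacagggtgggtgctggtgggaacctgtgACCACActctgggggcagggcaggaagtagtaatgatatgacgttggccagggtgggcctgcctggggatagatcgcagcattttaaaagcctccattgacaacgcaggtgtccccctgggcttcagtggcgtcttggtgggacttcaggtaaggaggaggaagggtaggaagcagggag
Fasl: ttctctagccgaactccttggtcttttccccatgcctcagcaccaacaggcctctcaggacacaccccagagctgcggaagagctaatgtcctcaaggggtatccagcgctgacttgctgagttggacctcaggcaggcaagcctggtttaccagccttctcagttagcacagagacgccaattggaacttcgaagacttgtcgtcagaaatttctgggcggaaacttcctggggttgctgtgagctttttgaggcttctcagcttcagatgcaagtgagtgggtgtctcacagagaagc

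Searched on both strands, TGTGGT occurred in 6 of the 8 promoters, the same length of sequence holding it in 16.8% of 32851 promoters of the table. The T-box core AGGTGT occurred in 2 of 8 (Nkg7 and Prf1, against 13.7% of promoters) and the ETS core AGGAAG in 4 of 8 (Fasl, Klrb1c, Nkg7 and Prf1, against 35.4%). The end of the T-box core can overlap the start of the RUNX core, and overlaps were not removed. Letters in these windows do not show that a factor binds there.

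The 4 NK receptor genes were low throughout, and most of their counts came from 2 libraries. Ncr1 (GRCm38 chromosome 7, 4337724 to 4345164, plus strand) encodes NKp46, an activating receptor used to define NK cells. It had 12, 0 and 0 counts in TG High replicates 1 to 3 and 90, 8 and 0 counts in TG Low, against 21, 2 and 0 counts in WT High and 164, 43 and 0 counts in WT Low. In CPM, TG Low replicate 1 reached 4.61 and WT Low replicate 1 reached 8.42, while the same-numbered High libraries had 0.636 CPM in TG and 1.13 CPM in WT. All 4 libraries numbered 3 were at 0.

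Klrb1c (chromosome 6, 128778485 to 128789215, minus strand) encodes NK1.1, the antigen by which NK cells of this strain are sorted. Its counts were 4, 1 and 1 in TG High and 70, 7 and 1 in TG Low, against 10, 0 and 0 in WT High and 54, 26 and 1 in WT Low. The High library had fewer counts than the Low library in both pairs numbered 1 and both numbered 2, and the pairs numbered 3 held at most 1 count per library. The annotated gene Gm44511 shares exons and strand with Klrb1c. The count table keeps 5778 genes without any count but has no row for Gm44511. Whether reads of the overlap were lost to Klrb1c is therefore not shown.

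Klrd1 and Klrk1 are neighbours on chromosome 6, Klrd1 at 129591782 to 129598775 on the plus strand and Klrk1 at 129610323 to 129623864 on the minus strand. Klrd1 encodes CD94, which pairs with NKG2 chains to read the class I molecule Qa-1. It had 10, 1 and 2 counts in TG High and 46, 8 and 0 in TG Low, against 6, 0 and 1 in WT High and 50, 11 and 4 in WT Low. Klrk1 encodes NKG2D, the receptor for stress ligands of the Rae1 and H60 families. It had 4, 0 and 0 counts in TG High and 46, 8 and 0 in TG Low, against 8, 2 and 1 in WT High and 97, 12 and 1 in WT Low. For both genes, as for Ncr1, replicate 1 of each Low group stood above every other library of its genotype.

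**Figure D1:**
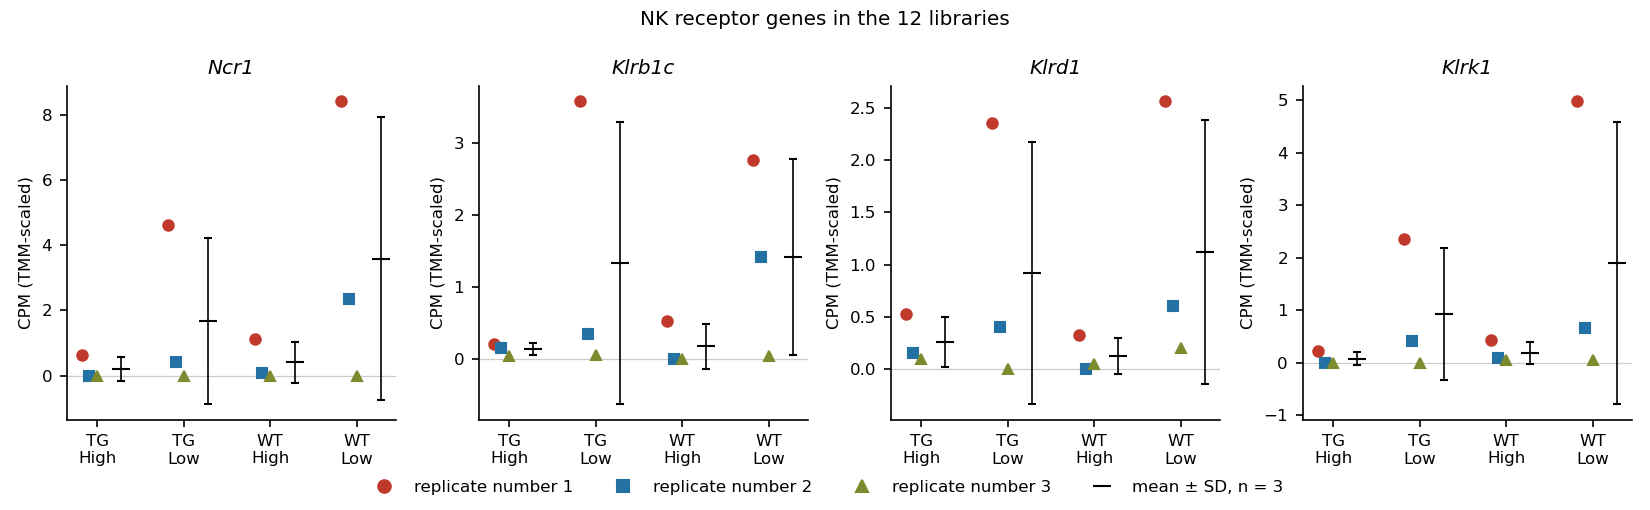
Level of the 4 NK receptor genes in each library, in CPM, with TG High, TG Low, WT High and WT Low from left to right, the replicate number shown by the marker and the group mean and SD (n = 3). The Low libraries numbered 1 stand at the top in each panel, at 4.61 CPM in TG and 8.42 CPM in WT for Ncr1.

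Added together, the 4 receptors gave 30, 2 and 3 counts in TG High and 252, 31 and 1 in TG Low, against 45, 4 and 2 in WT High and 365, 92 and 6 in WT Low. In the number 1 pairs the summed CPM was 1.59 in TG High against 12.9 in TG Low, which is 8.11-fold lower in High, and 2.41 in WT High against 18.7 in WT Low, which is 7.77-fold lower in High. In the number 3 pairs the sums lay between 0.0530 and 0.294 CPM in all 4 libraries, where a difference between the gates was not detectable at this depth. The fitted log2 differences, High minus Low, were -2.76 in TG and -3.18 in WT for Ncr1, -3.27 and -3.02 for Klrb1c, -1.74 and -3.22 for Klrd1, and -3.37 and -3.36 for Klrk1. The Low libraries numbered 1 weigh heavily in these fits. Without TG Low replicate 1 the TG differences were 0.24 for Ncr1 and 0.40 for Klrd1, -0.61 for Klrb1c and -1.23 for Klrk1, and without WT Low replicate 1 the WT differences were -1.56 for Ncr1 and -0.93 for Klrk1.

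The make-up of that sum was not the same in the 2 Low libraries numbered 1. Ncr1 took 35.7% of the 252 counts in TG Low replicate 1 (95% exact binomial interval 29.8 to 42.0) and 44.9% of the 365 counts in WT Low replicate 1 (39.8 to 50.2). Klrb1c took 27.8% (22.3 to 33.7) in the TG library and 14.8% (11.3 to 18.9) in the WT library, and Klrk1 took 18.3% (13.7 to 23.6) in TG and 26.6% (22.1 to 31.4) in WT. In replicate 2 the Klrb1c share was 22.6% (9.6 to 41.1) in TG Low and 28.3% (19.4 to 38.6) in WT Low, the opposite order with overlapping intervals. The intervals cover counting error in single libraries, and no difference between genotypes is drawn from them.

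Myeloid and dendritic cell markers were highest in the same 2 libraries. The summed level of 8 myeloid and dendritic cell markers, which include Lyz2, C1qa and Csf1r, was 15.7, 2.30 and 2.11 CPM in TG High and 107, 2.63 and 1.96 in TG Low, against 3.54, 2.19 and 3.05 in WT High and 51.2, 3.76 and 2.64 in WT Low. Both Low libraries numbered 1 had all 8 markers above 0, whereas 2 to 5 of the 8 were at 0 in the libraries numbered 2 and 3. Of the 2, TG had the higher myeloid sum and WT the higher sum of NK receptors. The B cell sum did not single out these libraries, with 1001 CPM in TG High replicate 1, 1085 in TG Low replicate 1, 698 in WT High replicate 1 and 867 in WT Low replicate 1. The part of other cells in the receptor levels was not tested. In bulk RNA, fewer cells of a type and less RNA per cell cannot be told apart.

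**Figure D2:**
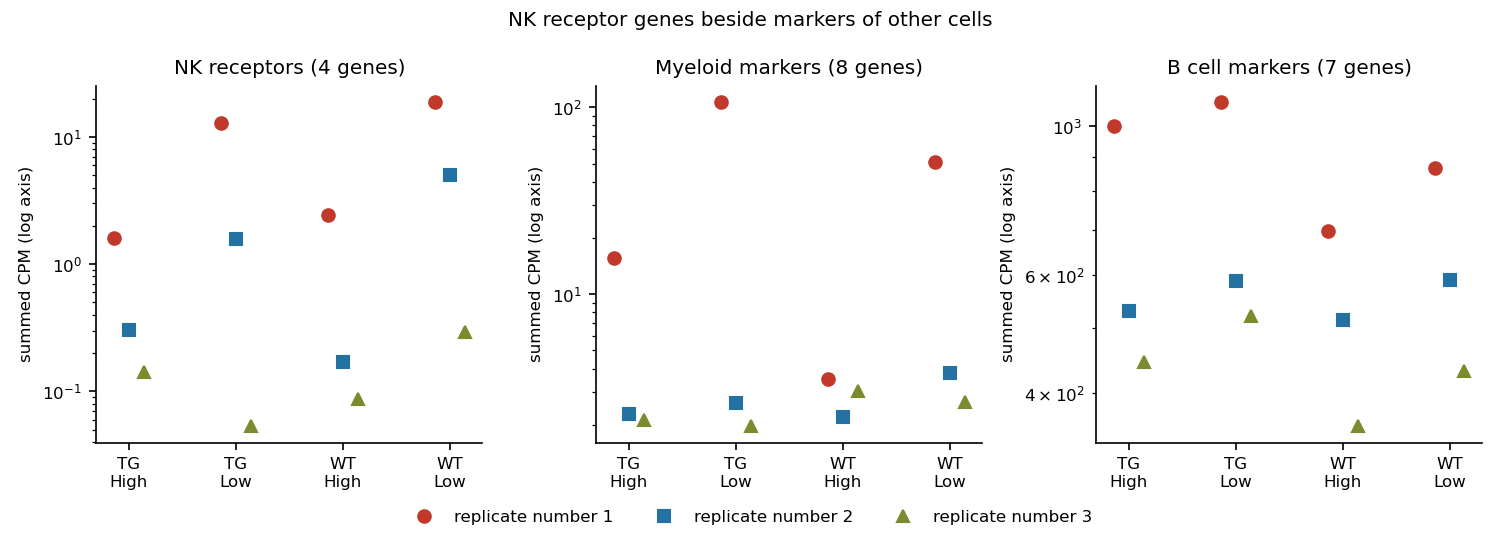
Summed level of the 4 NK receptor genes beside the summed levels of marker genes of other cells in each library, in CPM on log axes, with the groups and replicate numbers marked. The 2 Low libraries numbered 1 lie highest for the NK receptors (12.9 and 18.7 CPM) and for the myeloid markers (107 and 51.2 CPM).

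Fasl differed between the gates in every library. Fasl, on chromosome 1 at 161780689 to 161788495 on the minus strand, encodes Fas ligand. Its level was 3.61, 6.58 and 5.21 CPM in TG High and 14.2, 12.3 and 11.3 CPM in TG Low, against 7.13, 5.56 and 4.18 CPM in WT High and 14.1, 12.7 and 12.2 CPM in WT Low. The highest of the 6 High libraries stayed below the lowest of the 6 Low libraries, and Fasl was the only one of the 10 genes whose gates did not overlap. The share of tested genes lower in High without overlap was 3.84% in TG, 4.37% in WT and 0.705% over both genotypes.

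The group means of Fasl were 5.13 ± 1.49 CPM in TG High and 12.6 ± 1.47 in TG Low, 5.62 ± 1.47 in WT High and 13.0 ± 0.981 in WT Low (SD, n = 3 each). The fitted log2 difference, High minus Low, was -1.32 in TG and -1.21 in WT, and single pairs ran from -1.98 to -0.90. Without the 4 libraries numbered 1 it was -1.02 in TG and -1.35 in WT. Fas, the receptor of Fas ligand, was read at 86.3 to 126 CPM in all libraries.

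Prf1 encodes perforin (chromosome 10, 61297833 to 61304680, plus strand). It stood at 13.0, 24.2 and 20.6 CPM in TG High and 15.2, 42.1 and 23.9 in TG Low, against 12.9, 28.9 and 18.5 in WT High and 15.2, 39.4 and 19.9 in WT Low. The groups overlap, because the replicate numbers lie further apart than the gates, but within a number the High library was lower in all 6 pairs, which is so for 7.32% of the 11766 genes tested. The pairs differed by -0.80 to -0.11 on the log2 scale, with the largest difference in both pairs numbered 2. The fitted log2 differences were -0.50 in TG and -0.30 in WT, and without WT Low replicate 2 the WT value was 0.20.

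**Figure D3:**
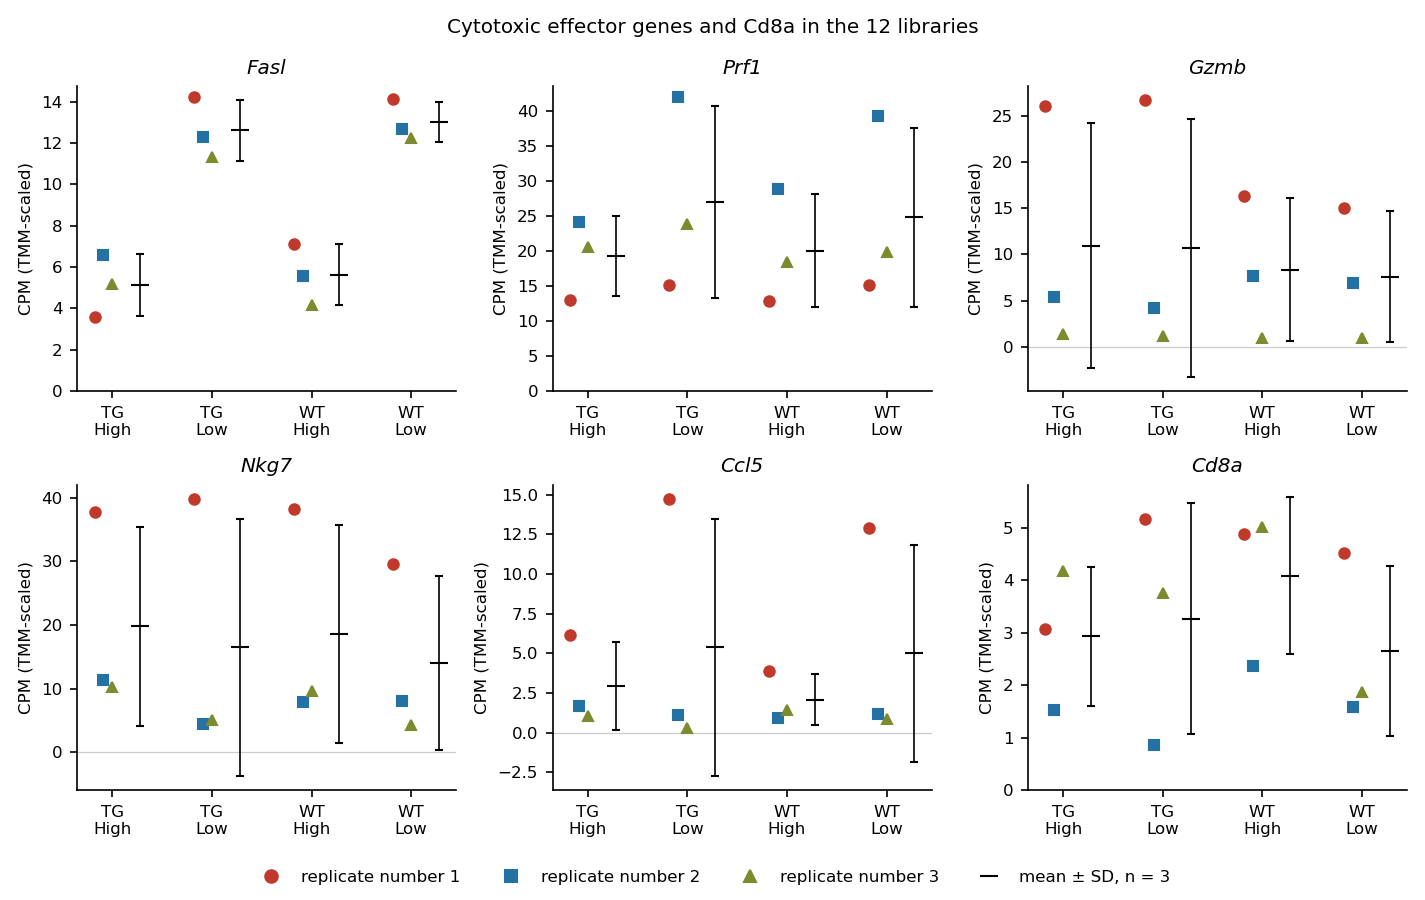
Level of Fasl, Prf1, Gzmb, Nkg7, Ccl5 and Cd8a in each library, in CPM, by group with the replicate number shown by the marker and the group mean and SD (n = 3). Fasl separates the gates (3.61 to 7.13 CPM in High, 11.3 to 14.2 in Low), and Gzmb, Nkg7 and Ccl5 separate the libraries numbered 1 from the rest.

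Gzmb, the gene of granzyme B (chromosome 14, 56258838 to 56262260, minus strand), was almost the same in both gates of a pair. It had 26.1, 5.36 and 1.36 CPM in TG High and 26.8, 4.19 and 1.11 in TG Low, against 16.4, 7.71 and 0.959 in WT High and 15.0, 6.87 and 0.881 in WT Low. The pair differences lay between -0.03 and 0.35 on the log2 scale, higher in High in 5 of 6. The unpaired fit gave 0.05 in TG and 0.13 in WT, but -1.76 in TG without TG High replicate 1 and -0.81 in WT without WT High replicate 1. The level itself depended on the number, at 15.0 to 26.8 CPM in the libraries numbered 1 and 0.881 to 1.36 CPM in those numbered 3.

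Nkg7, a protein of cytotoxic granules (chromosome 7, 43437073 to 43438249, plus strand), was higher in High in 4 of the 6 pairs. It had 37.7, 11.3 and 10.2 CPM in TG High and 39.8, 4.49 and 5.09 in TG Low, against 38.3, 7.92 and 9.54 in WT High and 29.6, 8.02 and 4.35 in WT Low. The pairs numbered 3 and the TG pair numbered 2 differed by 1.01 to 1.33 on the log2 scale, and the remaining 3 pairs by -0.08 to 0.37. The fitted log2 difference was 0.28 in TG and 0.41 in WT, and without the libraries numbered 1 it was 1.16 in TG and 0.50 in WT. Leaving out replicate 1 of the High group alone turned it to -0.61 in TG and -0.68 in WT.

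Ccl5 encodes a chemokine that draws T cells, NK cells and monocytes (chromosome 11, 83525778 to 83530518, minus strand). It had 6.15, 1.68 and 1.03 CPM in TG High and 14.7, 1.11 and 0.265 in TG Low, against 3.91, 0.927 and 1.39 in WT High and 12.9, 1.20 and 0.881 in WT Low. Its direction depended on the pair, with log2 differences of -1.26 in TG and -1.72 in WT in the pairs numbered 1 but 1.96 in TG and 0.66 in WT in those numbered 3. The fitted difference was -0.84 in TG and -1.27 in WT, and without the libraries numbered 1 it was 0.90 in TG and 0.16 in WT.

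Cd8a encodes the CD8 alpha chain, which is not made by mature CD4 T cells as a rule (chromosome 6, 71373427 to 71379173, plus strand). It had 3.08, 1.53 and 4.17 CPM in TG High and 5.17, 0.858 and 3.76 in TG Low, against 4.88, 2.36 and 5.01 in WT High and 4.52, 1.58 and 1.86 in WT Low. High was the higher of the pair in 5 of 6, and TG replicate 1 was the exception at -0.75 on the log2 scale. Cd8b1, the beta chain, was read at 26.1 to 35.9 CPM in all libraries and did not share the spread of Cd8a. The libraries numbered 2, not 1, had the least Cd8a in each group.

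**Figure D4:**
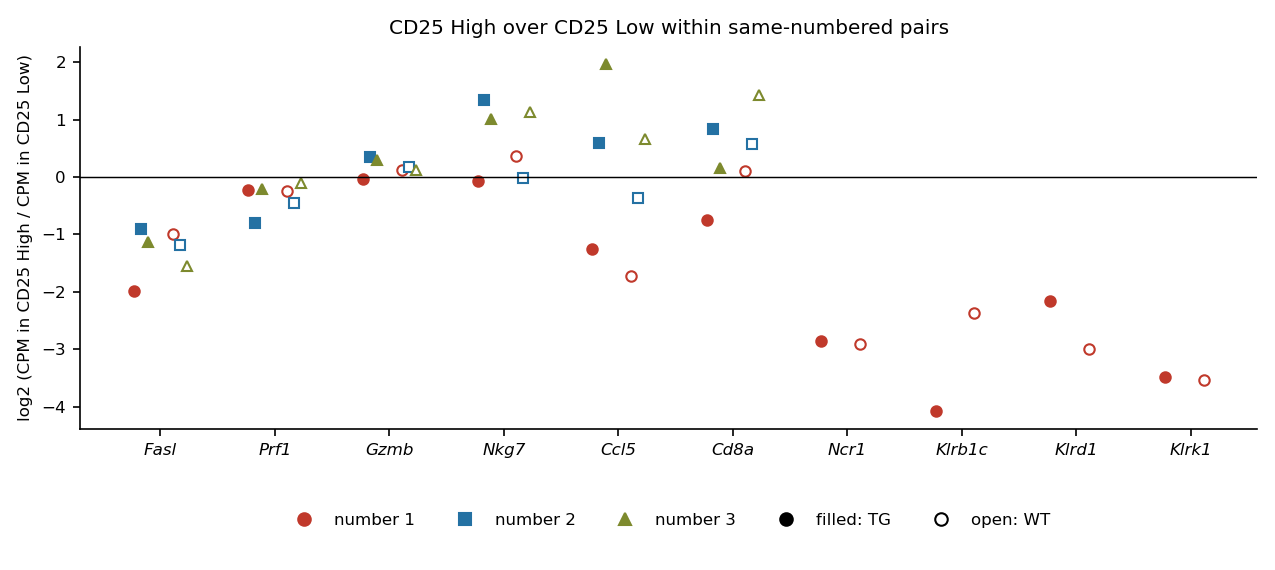
Log2 ratio of CPM, High over Low, for each same-numbered pair of each gene, with the marker giving the replicate number, filled for TG and open for WT, and pairs with fewer than 4 counts in either library left out. Fasl and Prf1 lie below 0 in all 6 pairs, and Ccl5 runs from -1.72 to 1.96.

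Replicate number was tested on the 6 genes that had counts in every library. With the 4 groups held constant, edgeR's F test, which covers any difference between the 3 numbers, called 5 of these 6 at an adjusted p under 0.05, where 34.3% of the 11766 tested genes were called. Fasl was the gene not called (edgeR adjusted p = 0.534), at 0.13 on the log2 scale between number 1 and the mean of numbers 2 and 3 (SE 0.15). Number 1 stood above the mean of the other numbers for Nkg7 (log2 2.32, SE 0.18, edgeR adjusted p = 6.03e-06), Gzmb (3.00, SE 0.20, adjusted p = 8.14e-08) and Ccl5 (3.09, SE 0.40, adjusted p = 0.000771). For these 3 genes the 4 libraries numbered 1 lay above all other 8. Together with Prf1, where they lay below, that makes 4 of the 6 genes, against 12.1% of genes tested.

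Prf1 went the opposite way, with number 1 below the mean of the others by a log2 difference of -0.90 (SE 0.10, edgeR adjusted p = 2.01e-06). Its 4 libraries numbered 1, at 12.9 to 15.2 CPM, were below all other 8, and number 2 exceeded number 3 by 0.69 (SE 0.11). Perforin and granzyme B transcripts, whose proteins act together, therefore ranked the libraries in different ways. Cd8a differed by 0.90 (SE 0.24, adjusted p = 0.0039), with number 2 below number 3 by a log2 difference of -1.22 (SE 0.31). The 4 receptors passed the filter on low counts only through libraries in which they were high, most of them numbered 1, so no test of the number is given for them and their counts above stand as a description.

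The genotype comparison, TG minus WT averaged over both gates, does not share the contrast on which the genes were chosen. None of the 10 genes was called by edgeR (adjusted p = 1 for each, 0 at an unadjusted p under 0.05), and the share called over all 11766 tested genes was 0%, with 163 genes at an unadjusted p under 0.05. DESeq2 called 0 genes as well. The log2 differences ran from -1.04 for Klrk1 (SE 1.29) to 0.46 for Klrd1 (SE 1.04). Fasl was measured most tightly, at -0.10 (SE 0.17, 95% interval -0.43 to 0.24). The intervals of the receptors are wide, such as -3.85 to 2.08 for Ncr1, and leave room for several-fold differences in either direction.

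With the replicate number as a block the intervals narrowed, and again 0 of the 10 genes were called, against 6 of all tested genes (0.051%). Prf1 differed by 0.06 (95% interval -0.12 to 0.24, edgeR adjusted p = 0.942), Nkg7 by 0.09 (-0.27 to 0.45, adjusted p = 0.956), Fasl by -0.10 (-0.39 to 0.19, adjusted p = 0.938) and Gzmb by 0.22 (-0.18 to 0.62, adjusted p = 0.880). Ncr1 stood at -1.11 (-1.97 to -0.24, edgeR adjusted p = 0.667) and Klrk1 at -1.15 (-2.15 to -0.15, edgeR adjusted p = 0.701). The 4 receptors passed the filter on low counts only through libraries in which they were high. For Klrk1 the highest were TG Low replicate 1 and WT Low replicates 1 and 2. The genotype values of the receptors therefore stand as a description. The signs of TG against WT in same-numbered pairs are not counted, since no share over all tested genes was worked out for them. For Klrk1, 3 of the pairs held 2 counts or fewer in both libraries, and for Ncr1 2 pairs were at 0 in both.

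Within each gate the genotypes overlapped for all 10 genes, while 4.27% of tested genes in High and 3.3% in Low did not overlap. No gene of the 10 was called in High or in Low, with or without the block, or in the difference of the genotype effects between the gates. Ncr1 in Low with the block stood at a log2 difference of -1.48 (95% interval -2.40 to -0.56), from 90, 8 and 0 counts in TG against 164, 43 and 0 in WT. That value is a description, because of how the receptors passed the filter. In the difference of the effects between the gates the lowest unadjusted p was 0.408 without and 0.139 with the block (edgeR adjusted p = 1 in both). In the averaged comparison all 7 B cell markers were positive (median log2 0.59), and so were all 3 tested gamma delta T cell markers (median 0.45). Several myeloid markers passed the filter through libraries numbered 1, so their signs are not counted. Their sum was higher in TG in the pairs numbered 1 (15.7 against 3.54 CPM in High, 107 against 51.2 in Low). In the pairs numbered 2 and 3, TG against WT was 2.30 against 2.19 and 2.11 against 3.05 CPM in High. In Low it was 2.63 against 3.76 and 1.96 against 2.64 CPM. The signs of the NK markers are not counted either, since the 4 receptors are among them. The 2 CD8 T cell markers were split. Of the 8 CD4 T cell and Treg markers 7 were positive (median 0.04, against 0.01 over all tested genes), but within High 3 were positive and 5 negative. None of these markers was called without the block, and the B cell gene Cd22 was called with it (log2 1.04, SE 0.15, edgeR adjusted p = 0.022). The part of other cells in the genotype values of the 10 genes was not tested.

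**Figure D5:**
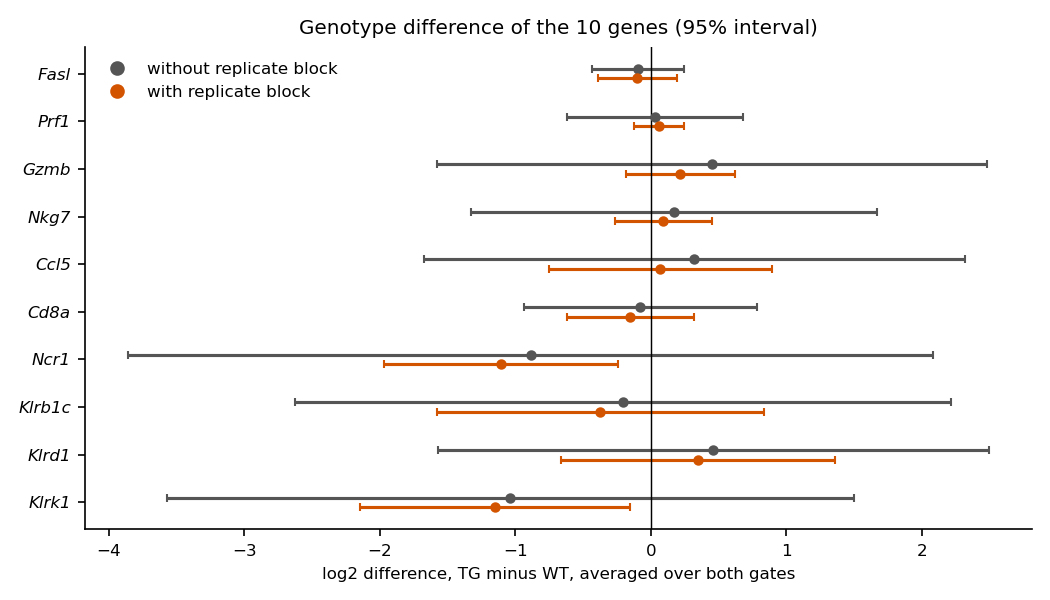
Log2 difference of each gene, TG minus WT averaged over both gates, with its 95% interval, fitted without and with the replicate block. All intervals without the block span 0, and with the block those of Ncr1 (-1.97 to -0.24) and Klrk1 (-2.15 to -0.15) do not, although neither passed the adjustment.

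The 8 lists of related genes, none holding the 10, place these values in their pathways. No list had a gene called for genotype, with or without the block, and the list medians of TG minus WT lay between -0.17 and 0.27, against 0.01 over all tested genes. For replicate number the lists differed. Over all tested genes 19.4% were called with number 1 above the mean of the others and 14.9% with number 1 below it, and the median log2 difference was -0.01. Of the marker lists, 7 of 7 B cell genes (median 3.28) were called with number 1 above. The part of other cells in the list values was not tested. Genes read mainly in number 1 can pass the filter on low counts through these libraries, so list counts and medians lean towards genes that are high there. No count is given for lists with several such genes, the myeloid markers included, and a single such gene is named.

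Of 16 effector chemokine, chemokine receptor and cytokine genes 12 were tested. Several of them, such as Xcl1 and Ccl4, passed the filter through the libraries numbered 1, so no count is given for this list. Cxcr3, a receptor of type 1 effector T cells, was called with number 1 above (log2 2.87, SE 0.14, edgeR adjusted p = 1.32e-08). All 13 transcription factors of NK and cytotoxic T cells were tested. The F test called 12 with number 1 above the mean of the others and 0 with it below (median 0.99). Among them were Tbx21, which encodes T-bet (2.34, SE 0.18, edgeR adjusted p = 3e-07), and Bhlhe40 (1.56, SE 0.10, adjusted p = 3.41e-08). Zeb2 is among the 13 and passed the filter through the libraries numbered 1, so its direction was set by the filter. Of 16 other NK receptors and adaptors 14 were tested, and no count is given, because Fcer1g and Cd244a among them also needed these libraries to pass. Il18rap, a chain of the interleukin-18 receptor, was called with number 1 above (log2 1.81, SE 0.20, edgeR adjusted p = 3.52e-06).

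Of 22 further NK lectin-like receptors 5 passed the filter, and since genes high in number 1 pass it more easily, no count is given for this list. Klrg1, a receptor for cadherins that also marks effector Tregs, spanned a wide range, with 65.0, 8.57 and 0.188 CPM in TG High and 102, 18.4 and 0.689 in TG Low, against 34.6, 10.3 and 0.174 in WT High and 54.3, 20.8 and 0.0978 in WT Low. In each group its library numbered 1 was the highest and its library numbered 3 the lowest.

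The granule list was mixed, with 6 called above and 3 below of 14 tested out of 19 (median 0.09). Gzma is among the 14 and passed the filter through the libraries numbered 1. Cst7, an inhibitor of granule proteases, was higher in number 1 (log2 1.49, SE 0.08, edgeR adjusted p = 5.19e-09) and so was Stx11, which acts in granule release (1.50, SE 0.09, adjusted p = 8.93e-09), whereas the protease gene Ctsw was lower (-0.29, SE 0.07, adjusted p = 3.24e-05). Of 11 genes of death ligands, receptors and their regulators, 3 were called above and 4 below (median -0.06), of 6 CD8 lineage and co-receptor genes 3 above and 0 below (median 0.12), and of 7 tested ligands of NK receptors 1 above and 2 below (median -0.05).

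Between the gates, edgeR without the block called 1 gene of these lists (0.0085% of tested genes in TG and 0.051% in WT), Il2rb, a chain of the interleukin-2 and interleukin-15 receptors. It was higher in High in TG (log2 0.85, SE 0.09, edgeR adjusted p = 0.00657) and in WT (0.85, SE 0.09, adjusted p = 0.00631). With the block, Ctsw was higher in High in both genotypes (TG 0.37, SE 0.09, adjusted p = 0.0384, and WT 0.45, SE 0.09, adjusted p = 0.00941). Cxcr3 was lower in both (TG -1.35, SE 0.21, adjusted p = 0.00398, and WT -1.46, SE 0.20, adjusted p = 0.00158). In 1 genotype each, Hcst, the adaptor through which NKG2D signals, was lower in TG High (-0.34, SE 0.08, adjusted p = 0.0357), the integrin gene Itga2, which encodes the NK marker CD49b, was lower in WT High (-1.37, SE 0.28, adjusted p = 0.0151) and Hopx was higher in WT High (0.39, SE 0.09, adjusted p = 0.0458). With the block, 1.68% of tested genes were called in TG and 1.63% in WT.

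For each of the 10 genes, the genes whose profile over the 12 libraries came closest were listed, and the receptors shared some of theirs. Likeness was measured as the root mean square difference of centred log2(CPM + 0.5) among the 9239 genes that averaged 5 CPM or more. Fasl was nearest to Dapl1 (0.23), Vipr1 (0.28) and Anp32a (0.32), each with less in High than in Low in every same-numbered pair, like Fasl itself. Prf1 was nearest to Hid1 (0.18), Nuak2 (0.20) and Als2cl (0.20). Gzmb lay closest to Cybb (0.41), Lgals3 (0.43) and Ccnb2 (0.45), and Nkg7 to Penk (0.26), Ccr8 (0.27) and Bcat1 (0.36).

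Ccl5 was nearest to Axl (0.44), Pou2af1 (0.48) and Ebi3 (0.53), and Cd8a to Cd160 (0.31), Ccr9 (0.32) and Slc43a1 (0.32). For the receptors the nearest genes were S100a11 (0.35), Itgb1 (0.35) and Icos (0.40) to Klrd1, Podnl1 (0.49), Maf (0.53) and Apoe (0.54) to Klrk1, Itgb1 (0.51), S100a11 (0.51) and Tbx21 (0.52) to Klrb1c, and Tbx21 (0.56), Maf (0.60) and Gpm6b (0.61) to Ncr1. Among the 10 genes themselves, Klrd1 and Klrk1 were the closest pair (0.34), followed by Klrd1 and Klrb1c (0.35), and Gzmb and Prf1 were the farthest apart (1.82). These distances describe 12 libraries that share replicate numbers, and at the receptors' counts the added 0.5 CPM shortens them.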

How the data were processed

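The deposited values are raw counts of reads per Ensembl gene. Per the submitters' processing notes, the authors used CASAVA 1.8.2, STAR 2.4 and featureCounts 1.4.6 with build GRCm38. Per the labels' protocols, cDNA was amplified from 10 ng of RNA with the SMARTer kit, which keeps no strand. Reads carry no molecular identifiers. Symbols, exon lengths and positions came from GENCODE vM21 (GRCm38), and all 10 genes passed edgeR's filterByExpr (minimum count 10), which kept 11766 genes. A gene can pass through its 3 highest libraries alone. Replicates differed by 22.0 to 50.8 times the chi-square that sampling noise gives, so no library repeats another. edgeR 4.0.16 in R 4.3.3 (TMM, robust quasi-likelihood, Benjamini-Hochberg at 0.05) was fitted over the 4 groups. Intervals of log2 differences are the estimate plus or minus 1.96 SE. They are narrower than the F test allows, so an interval can leave out 0 at an unadjusted p above 0.05. Same-numbered libraries of different groups correlated at 0.34 to 0.83 (18 pairs) and others at -0.688 to 0.197 (36 pairs), so the number was also used as a block. DESeq2 1.42.0, RLE scaling, no filter and omitted libraries were alternatives. The fits were tested on simulated counts without a replicate effect, so their recovery does not give the power of the fit without the block. Every list gene past the threshold in a comparison could be named, at most 4 per list. The 10 genes and the lists were chosen with earlier results of these data known.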

Additional observations from a re-analysis of the deposited data

Results flagged for a closer look

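Klrd1 was singled out because TG and WT differed in opposite directions in the 2 gates. The fitted log2 difference, TG minus WT, was 1.20 in High and -0.28 in Low. In High the TG library had more Klrd1 than the WT library in 3 of 3 same-numbered pairs (10, 1 and 2 counts against 6, 0 and 1), and in Low it had less in 3 of 3 (46, 8 and 0 counts against 50, 11 and 4). The test of the difference itself gave an unadjusted p = 0.495 without and 0.139 with the replicate block (edgeR adjusted p = 1 in both). At these counts a difference between the gates was not detectable.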

How the results depend on the processing

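No gene of the 10 was called for genotype under any alternative run. These were RLE scaling, no filter, DESeq2, the replicate block, each library left out, and without the libraries numbered 1, alone and with the block. The last of these was not planned in advance. Signs near 0 were not stable. Without the libraries numbered 1 the averaged TG minus WT log2 difference turned to 0.0887 for Fasl, -0.51 for Gzmb, -0.0341 for Nkg7, -0.21 for Ccl5 and 0.0652 for Cd8a, and with the block as well to 0.0922 for Fasl, -0.22 for Gzmb, -0.0261 for Nkg7 and -0.25 for Ccl5. Leaving out 1 library at a time it ran from -0.19 to 0.00656 for Fasl, -0.21 to 0.28 for Prf1, -0.33 to 0.23 for Cd8a, -0.55 to 0.94 for Gzmb, -0.72 to 0.76 for Nkg7, -1.15 to 1.45 for Ccl5, -0.61 to 1.51 for Klrd1, -1.54 to 2.16 for Klrb1c, -2.93 to 0.17 for Klrk1 and -3.51 to 0.62 for Ncr1. For Klrd1 it ran from -0.0182 to 3.30 within High and -2.42 to 1.21 within Low. The replicate block changed no call of the 10 genes. Over all genes, it moved the count called from 0 to 6 for genotype, from 1 to 198 for the gates in TG and from 6 to 192 for the gates in WT. For TG and WT the gate counts were 56 and 48 with DESeq2, 0 and 0 without the libraries numbered 1, 39 and 49 with the block as well, 0 and 1 with 2 groups fitted alone, and 0 to 3 and 0 to 7 with 1 library left out. Without the filter TG gave 3. The count for replicate number was 4030, and 2956 to 4550 with 1 library left out. Why the counts differ was not tested. The low counts of the 4 receptors limit every statement on them, and they were not tested without the libraries numbered 1, where they failed the filter.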
